A study of Mus musculus with 12 samples.

Results

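A set of 4 microglial genes divided 12 RNA-seq libraries of mouse retinal cell pools, labelled as ganglion cells, into 4 libraries rich in microglial transcripts and 8 that held few or none. The 4 were chosen by their measured levels of P2ry12, Tmem119, Cx3cr1 and C1qa, so those levels and the other myeloid genes are described without a test. The microglia-rich libraries were GFP day 7 replicate 3, Olig1 day 7 replicate 3, GFP day 14 replicate 2 and GFP day 14 replicate 3, and values for them are given in this order throughout. Expression is in CPM, the counts of a gene scaled to 1000000 gene counts per library.

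Every library was made from wild-type adult male mice whose eyes had received an AAV2 vector, labelled as 14 days of virus in all groups, and whose optic nerve had been crushed, a lesion that cuts the axons of ganglion cells. The vector carried GFP or Olig1, a transcription factor gene of the oligodendrocyte lineage, and cells were collected at 7 or 14 days of injury, for 4 groups with 3 libraries in each. No library came from an uninjured eye. Cells were bound to magnetic beads through CD90.2, the product of Thy1, and picked with a Unipick device in pools of 10 to 20 cells per tube, so 1 library is 1 small pool; the labels do not say whether replicates came from different mice, and p-values measure only the spread between these libraries. Among the rich libraries, 3 of 6 carried GFP and 1 of 6 carried Olig1, and 2 came from each day. Olig1 day 14 had none. Replicate number was uneven as well: 3 of the 4 libraries numbered 3 were rich, 1 of the 4 numbered 2 and 0 of the 4 numbered 1. The labels speak of batches of libraries without saying which library belonged to which, so batch was not tested.

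Microglia are the resident macrophages of the retina. They arise from yolk sac precursors, live on signals through the receptor Csf1r, survey the tissue with processes guided by the purine receptor P2ry12 and the fractalkine receptor Cx3cr1, and supply the C1q proteins that start the classical complement cascade. After optic nerve injury they gather in the ganglion cell layer and engulf debris. In such states they lower homeostatic genes such as P2ry12 and Tmem119 and raise lysosomal, lipid and antigen-presentation genes.

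Total counts ran from 14795354 to 27602459 in the rich libraries and from 12534515 to 25507230 in the other 8, and a count of 0 allows a level of up to 0.109 to 0.239 CPM (3 counts), counting error only. Genes with at least 1 count numbered 15163 to 17244 in the rich libraries and 10129 to 15826 in the rest, and the part of this difference in the results below was not tested. Olig1 itself was at 723 CPM in the rich Olig1 library, 56.4 to 1029 CPM in the other 5 Olig1 libraries and at most 0.351 CPM in the 6 GFP libraries, as labelled. The label of ganglion cells was only partly borne out, in both sets: 17 ganglion cell genes summed to 94.5, 3625, 181 and 99.9 CPM in the rich libraries, to 3268 to 4917 CPM in 3 of the other 8 and to 71.7 to 313 CPM in the remaining 5. The libraries with high ganglion cell sums all carried Olig1, and the 6 GFP libraries were at 71.7 to 313 CPM. Olig1 day 14 replicates 1 and 3 were low as well, at 250 and 217 CPM. The part of the virus in these ganglion cell sums was not tested. Pou4f1, a defining transcription factor of these neurons, was at most 0.338 CPM in the rich libraries and 4.56 CPM in the others. Müller glia genes summed to 50198 to 153754 CPM over all 12. The most abundant member of that list was Apoe, which is also in the list of disease-associated microglia described below.

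The summed level of the 4 markers was 219, 62.9, 614 and 599 CPM in the rich libraries and 0.145 to 24.5 CPM in the others. The lowest library inside the split, Olig1 day 7 replicate 3, stood at 62.9 CPM and the highest outside it, GFP day 14 replicate 1, at 24.5 CPM. That 24.5 CPM was all P2ry12, from 626 counts with 0 counts of the other 3 markers. The next library outside, GFP day 7 replicate 1 at 10.5 CPM, held 198 counts of Tmem119 and 0 of the rest. Each of these 2 libraries thus held 1 marker alone. In libraries made from pools, more cells of a type and more RNA per cell cannot be told apart.

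C1qa, the A chain of C1q (ENSMUSG00000036887, GRCm38 chr4:136895917-136898803, minus strand), was at 161, 51.2, 456 and 540 CPM in the rich libraries and at most 1.20 CPM elsewhere. Cx3cr1 (ENSMUSG00000052336, chr9:119901616-120069879, minus strand) was at 27.2, 4.73, 68.4 and 16.8 CPM, against at most 0.558 CPM. Both genes were free of overlap between the 2 sets. P2ry12 (ENSMUSG00000036353, chr3:59216272-59262871, minus strand) was at 12.8, 4.53, 52.5 and 18.1 CPM, and Tmem119, a membrane protein of resident microglia (ENSMUSG00000054675, chr5:113793729-113800516, minus strand), at 17.5, 2.50, 37.2 and 24.5 CPM. These 2 overlapped with the other set through the single libraries named above.

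**Figure D1:**
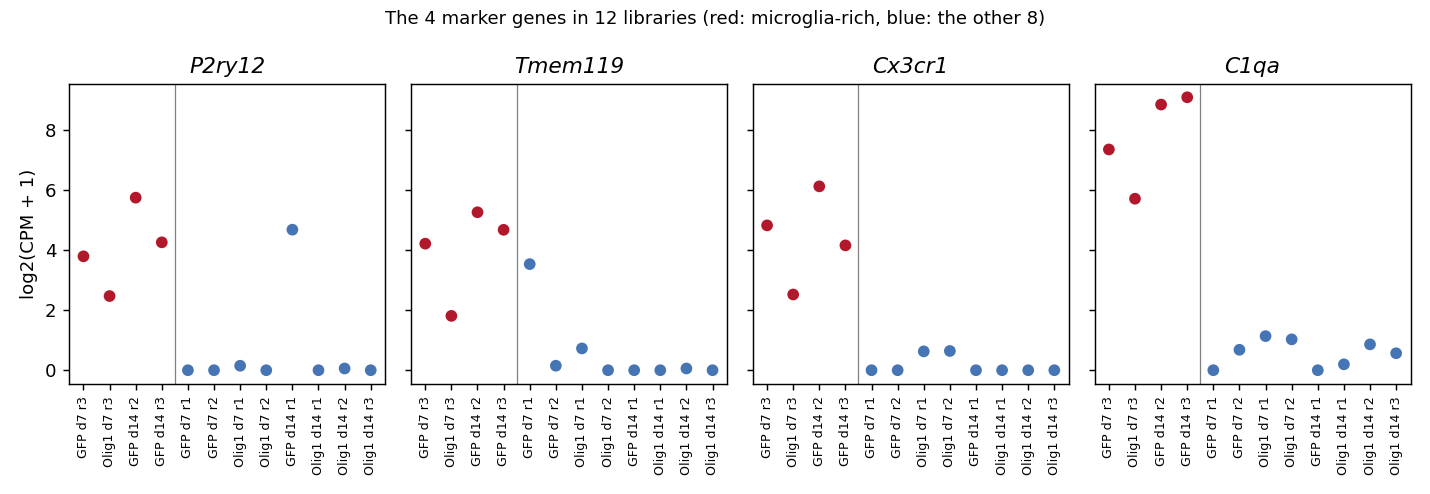
Level of the 4 marker genes in each library, as log2(CPM + 1) on the vertical axis, with the 4 microglia-rich libraries in red left of the line and the other 8 in blue. C1qa and Cx3cr1 separate the sets, and 1 blue point each stands out for P2ry12 (24.5 CPM) and Tmem119 (10.5 CPM).

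Across all genes, 110 of the 14985 tested (0.734%) were higher in all 4 rich libraries than in any of the other 8, and 7 (0.0467%) were lower in all 4. Because myeloid levels made the split, nothing is read from the 37 of the 110 that belong to the 6 myeloid lists (microglial, pan-myeloid, complement and Fc receptor, activation, macrophage and chemokine genes). The other 73 genes were in none of these lists. Of the 110, 88 were protein coding, 72 stayed under 1 CPM in every one of the 8 libraries, 25 reached 1 to under 10 CPM and 13 reached 10 CPM or more, and 17 had no count at all there. With each of the 8 libraries raised to at least 3 counts, the limit that a count of 0 allows, 98 of the 110 stayed higher, all 37 of the myeloid lists and 61 of the 73 others. The 12 that did not, among them Bin2, Irf5, Plek and Cyth4, had at least 1 rich library near that limit. The 110 genes made up 0.553%, 0.373%, 0.984% and 4.01% of the counts of the rich libraries and 0.0373% to 0.0609% of those of the rest. The 4.01% fell to 1.25% without immunoglobulin genes.

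The edgeR quasi-likelihood test, with a term for the 4 groups, put 6 genes past an adjusted p of 0.05 as higher (0.04% of those tested) and 0 as lower (0%). The 6 were C1qc, Cd68, Lyz2, Aif1, Tyrobp and Ly86, all members of the myeloid lists, so the rule used this contrast for them and nothing is read from the count, which was 0 without GFP day 7 replicate 3. Outside the lists 0 of 14903 genes passed, with a smallest adjusted p of 0.278. Of these 14903 genes, 720 were higher and 125 lower at an unadjusted edgeR p under 0.05. Chance alone puts about 1 in 20 genes under that threshold, counting both directions. The uneven split of 720 and 125 stands beside a positive median of all tested genes, given below, and its cause was not tested. Nothing is read from these counts. DESeq2 called 693 of the 14903 genes outside the lists and limma voom 3. Pools varied widely, with a biological coefficient of variation of 1.31, and the median log2 fold change of all tested genes was 0.36 on the fitted scale, against which the lists below are set. That median itself moved with the processing, as given in the closing section.

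**Figure D2:**
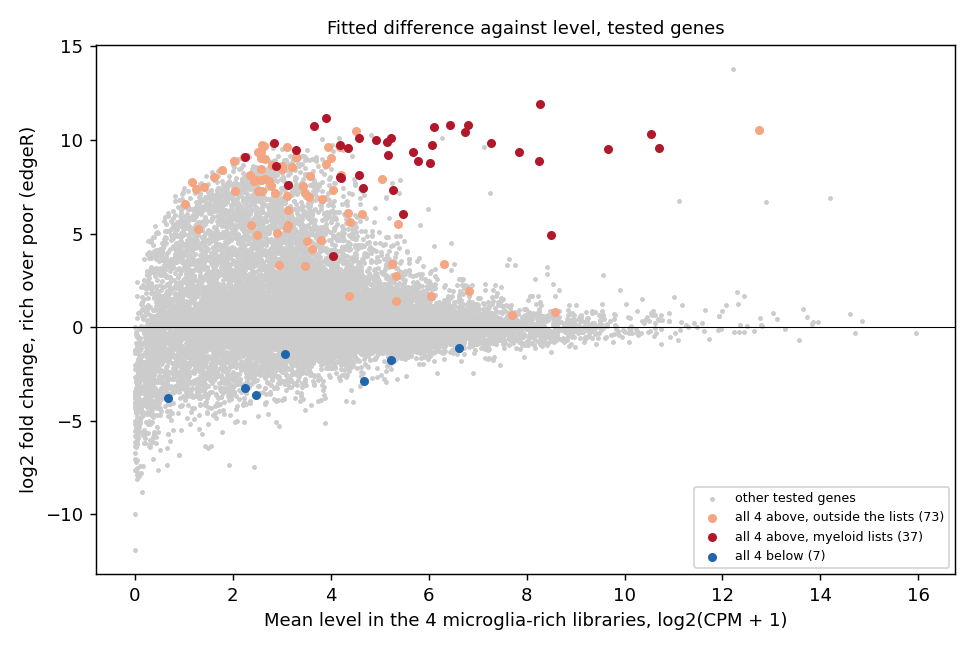
Fitted log2 fold change of the rich over the poor libraries (edgeR, vertical axis) against the mean level in the rich libraries, log2(CPM + 1), for the 14985 tested genes. Of the coloured genes, 37 myeloid list genes and 73 others lay above in all 4 rich libraries and 7 lay below.

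The myeloid lists are given as a description of what the split holds. Counts of separated members are out of all members of a list, tested or not, and stand beside 0.734% for all tested genes. Of 14 complement and Fc receptor genes, 9 were higher in all 4 rich libraries, 1 of them untested and so not among the 37 above. The 10 that were tested all had positive values, with a median log2 fold change of 9.62. C1qb, the B chain, was at 499, 428, 2326 and 2692 CPM and reached 26.8 CPM in Olig1 day 7 replicate 1, its highest level elsewhere. C1qc, the C chain, was at 169, 180, 1237 and 1656 CPM against at most 2.45 CPM. The 3 chains lie side by side on chromosome 4. Per kilobase of exon, C1qb stood above C1qa and C1qc in all 4 rich libraries, at 459, 394, 2138 and 2474 CPM per kb against 155, 49.2, 439 and 519 for C1qa. Among the receptors for antibody Fc parts, the activating Fcgr3 was at 68.9, 102, 64.3 and 28.0 CPM and the inhibitory Fcgr2b at 22.2, 23.1, 66.2 and 25.6 CPM. Itgb2, the shared beta chain of leukocyte integrins, was at 20.9, 15.5, 18.9 and 13.4 CPM, and no other library exceeded 0.326 CPM.

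Homeostatic microglial genes were separated in 8 of 20 cases, and 15 of the 16 tested had positive values (median log2 fold change 8.20). Csf1r, the survival receptor, was at 96.4, 26.8, 63.4 and 29.6 CPM against at most 1.91 CPM, and Gpr34, a lysophosphatidylserine receptor, at 49.7, 7.64, 167 and 45.8 CPM against at most 0.326 CPM. Trem2, a lipid receptor of microglia, was at 23.6, 6.62, 52.3 and 62.9 CPM against at most 0.160 CPM. Selplg, a selectin ligand, was at 40.6, 12, 54.1 and 33.3 CPM against at most 0.109 CPM. Olig1 day 7 replicate 3 was the lowest of the rich libraries for each of these 4 genes. The list's summed level overlapped between the sets (383 to 1632 against 146 to 2481 CPM), and its most abundant member was Sparc, which retinal glia and vessels express and which was at 134 to 2355 CPM elsewhere.

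Pan-myeloid genes were separated in 15 of 28 cases, and the 25 that were tested were all positive (median 8.19, or 8.11 with genes at 0 set to their bound). Ctss, the cathepsin S of antigen-processing cells, was the most abundant at 1582, 447, 1841 and 2799 CPM against at most 14.4 CPM. Lyz2, lysozyme of macrophages, was at 118, 133, 230 and 760 CPM, and Tyrobp, the adaptor that carries Trem2 signals, at 25.6, 64.8, 92.4 and 737 CPM. Neither exceeded 0.878 CPM in the other 8. Fcer1g, another such adaptor, was at 77.7, 125, 154 and 257 CPM, the lysosomal glycoprotein Cd68 at 26.7, 28.6, 109 and 279 CPM, and Ly86, a partner of a Toll-like receptor homologue, at 99.7, 58.7, 118 and 145 CPM. Spi1, which encodes the myeloid transcription factor PU.1, was lower at 1.23, 27.6, 33.9 and 6.22 CPM but still above all of the other 8, where the highest was 0.383 CPM. Ptprc, the common leukocyte antigen CD45, overlapped, at 4.39 to 13.5 CPM in the rich libraries and up to 10.1 CPM elsewhere.

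Of the genes of activated, disease-associated microglia, 3 of 22 were separated: Cd52, a surface glycoprotein, at 5.85, 51.8, 12.9 and 27 CPM, the chemokine Ccl6 at 23.7, 16.6, 5.54 and 10.1 CPM, and Clec7a, a beta-glucan receptor, at 7.20, 10.9, 10.0 and 2.88 CPM. Ccl6 had no count in the other 8, a ratio of at least 657-fold against 3 counts over those libraries. The list's median log2 fold change was 2.12, and several of its members are also made by retinal glia. Apoe, a lipid carrier of Müller glia, was at 42036 to 112128 CPM in the rich libraries and 38975 to 115723 CPM elsewhere. Cst7, an endosomal cystatin, was at 21.9, 22.6, 0 and 123 CPM, and Spp1, osteopontin, at 1.58, 28.6, 0 and 112 CPM. Both were at 0 in GFP day 14 replicate 2, and Spp1 reached 1165 CPM in the poor library Olig1 day 7 replicate 2.

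Border and infiltrating macrophage genes had 0 of 20 members separated, beside 0.734% of all tested genes. Only 5 of the 20 were tested and 4 had no count in any library, so nothing is read from the 0. Cd163, a scavenger receptor of perivascular macrophages, had no count in any library. Mrc1 was at 0.761, 3.99, 0 and 0 CPM, and Ccr2, the receptor of infiltrating monocytes, at 0.176, 5.41, 0 and 0.209 CPM. Ms4a7, a macrophage membrane gene, was at 32.7 CPM in Olig1 day 7 replicate 3 and 124 CPM in GFP day 14 replicate 3. It was at 0 and 0.145 CPM in the other rich pair. Among chemokines and cytokines 3 of 20 were separated. Ccl3 was at 139, 1.76, 4.09 and 5.59 CPM, Ccl5 at 68.7, 12.2, 8.22 and 2.46 CPM, and Ccl12 at 4.97, 140, 55.2 and 1.29 CPM, so a different library was highest for Ccl12. Tnf had no count in any library.

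**Figure D3:**
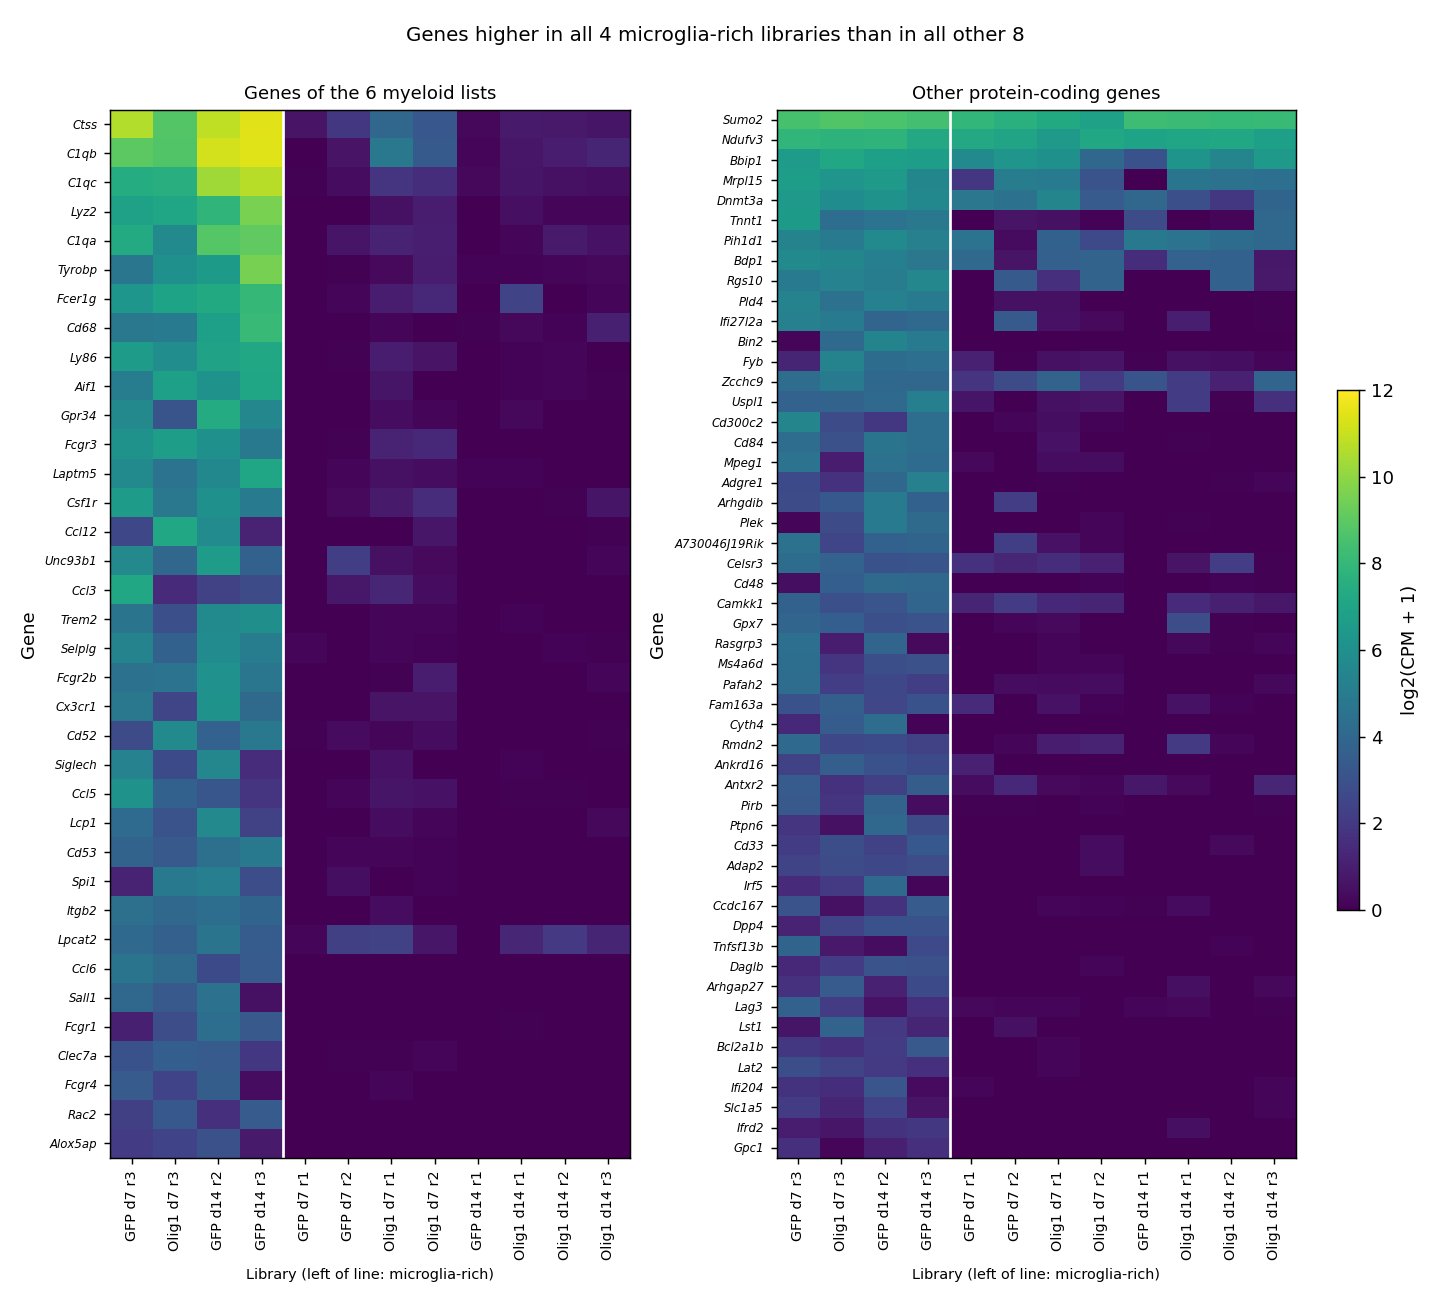
Level of the genes higher in all 4 microglia-rich libraries than in the other 8, as log2(CPM + 1) by colour, for 36 of the 37 myeloid list genes (left) and the 52 protein-coding genes of the other 73 (right), with libraries in columns. Left of the white line are the rich libraries. Most rows are near 0 in the other 8, except broadly expressed genes at the top right such as Sumo2.

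The 4 rich pools were compared through their gene levels per 100 CPM of the 4 markers, which are mostly C1qa (73.7, 81.3, 74.3 and 90.1 per 100). Trem2 held nearly the same place in each pool, at 10.8, 10.5, 8.51 and 10.5 per 100 CPM, a ratio of 1.27 between highest and lowest. For the 37 separated myeloid genes the median ratio of highest to lowest was 11. Olig1 day 7 replicate 3, the pool with the fewest marker counts, was highest for 25 of the 37 and lowest for 1 on this scale, which divides by its low marker sum. In CPM it was highest for 4 and lowest for 13. Relative to the markers, GFP day 14 replicate 3 was lowest for 17 and GFP day 14 replicate 2 for 12. Each pool is 1 library, so these are differences between libraries and not between conditions.

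Aif1, a calcium-binding protein that is stained to show microglia, was at 171 per 100 CPM in Olig1 day 7 replicate 3 and at 14.9, 11.1 and 22.3 in the other rich libraries. Not divided by the markers, it was at 21.3, 70.2, 44.4 and 87.1 CPM per kilobase of exon, highest in GFP day 14 replicate 3. Ccl12 stood at 222 per 100 CPM in Olig1 day 7 replicate 3 and at 0.216 to 8.98 in the others. MHC class II genes did the same: H2-Aa, a class II alpha chain, was at 627 per 100 CPM in that pool and at 0.588, 4.19 and 31.3 in the GFP pools. GFP day 7 replicate 3 carried inflammatory chemokines, with Ccl3 at 63.6 and Ccl4 at 61.8 per 100 CPM, whereas Ccl3 was at most 2.79 and Ccl4 at 0 in the other 3. Siglech, a homeostatic lectin, was at 17.7, 8.70, 7.43 and 0.314, and Sall1, a transcription factor of microglia, at 6.87, 14.8, 3.57 and 0.0766. Both were lowest in GFP day 14 replicate 3.

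**Figure D4:**
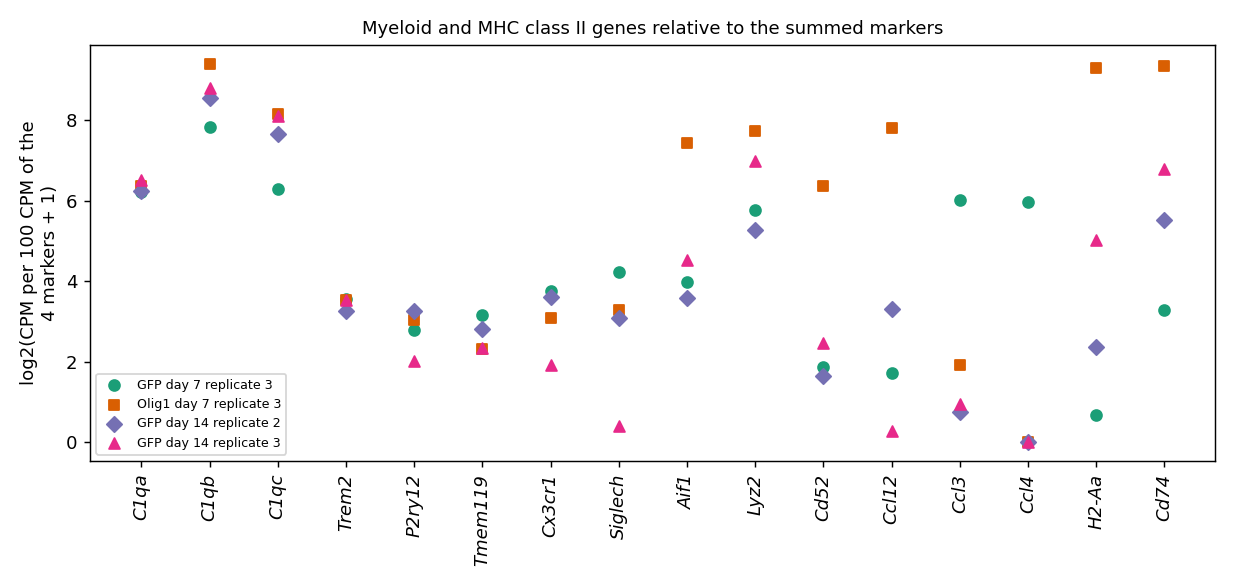
Level of 16 genes relative to the 4 markers in each microglia-rich library, as log2(CPM per 100 CPM of the markers + 1), with a symbol per library. Trem2 and C1qa lie close together in all 4, and Ccl12, H2-Aa and Ccl4 are spread widely.

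Genes outside the myeloid lists were ranked by how closely they tracked the 4 markers, as Pearson r of log2(CPM + 1) over the 12 libraries, given as a description since both quantities come from the same libraries. Only genes at a mean of 10 CPM or more in the rich libraries were ranked, a choice that favours genes high there. The median r of all tested genes, and not of those ranked, was 0.02. Of the 7643 genes ranked, 3 had r over 0.9 and 14 over 0.8. The 3 were Cd84, a leukocyte adhesion receptor (r = 0.923, 18.7, 6.89, 23.8 and 19.4 CPM), Pld4, a lysosomal exonuclease of phagocytes (r = 0.903, 40.0, 21.6, 37.2 and 28.9 CPM), and Adgre1, a surface receptor used to mark macrophages (r = 0.902, 5.38, 2.23, 15.8 and 36.8 CPM). None of the 3 exceeded 0.489 CPM in the other 8 libraries. Mpeg1, the pore-forming protein of macrophages, followed with r = 0.890, and Cd300c2, a myeloid immunoglobulin-like receptor, closed the 12 with r = 0.812. The other 7 were the uncharacterised genes 5430419D17Rik, 2810405F17Rik, A730046J19Rik and Gm38120, and Fam208b, Arhgdib and Vax2os. Arhgdib shares 136 exonic bases with Pde6h, a cone gene on the opposite strand, and Fam208b shares 1184 with Gdi2, and since the strand setting of the counting is not given in the sources used here, reads of the partners cannot be told apart.

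Other separated genes outside the lists, picked after their values were seen, included known genes of haematopoietic cells. They are a selection from the 73, of which 52 are protein coding. The 73 also hold Celsr3, Camkk1, Tnnt1, Fam163a and Ndufv3, and the share of blood cell genes among them was not counted. Bin2, a membrane-curving protein of phagocytes, was at 0.176, 16.2, 41.1 and 30.6 CPM with no count in the other 8, and its level in GFP day 7 replicate 3 was 3 counts, no more than a count of 0 allows. Ptpn6, a phosphatase of blood cells, was at 2.52, 0.473, 15.4 and 5.64 CPM, also with no count there. Cd48 was at 0.351, 11.1, 16.9 and 15.4 CPM, Ms4a6d at 19.1, 2.57, 6.41 and 6.89 CPM, and Cd33, a sialic acid lectin, at 3.28, 6.35, 4.13 and 8.89 CPM. GFP day 7 replicate 3 was the lowest of the 4 for Bin2 and Cd48 but the highest for Ms4a6d. Sumo2, a protein modifier, was broadly expressed, at 363, 434, 387 and 338 CPM against 117 to 309 CPM. Its log2 fold change was 0.82 ± 0.37 (SE) with an adjusted p of 0.832 in edgeR.

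The 7 genes lower in all 4 rich libraries were Igf2r, Cgn, Snap23, Ap1m1, Arhgdia, Mosmo and Sptbn1. Cgn, which encodes the tight junction protein cingulin, was at 1.64, 7.43, 2.97 and 6.05 CPM against 18.1 to 75.4 CPM, a log2 fold change of -3.62 ± 0.98 with an adjusted p of 0.759 in edgeR. Igf2r, the mannose 6-phosphate receptor, was at 0.585, 0.676, 0.833 and 0.292 CPM against 1.44 to 24.6 CPM. Sptbn1, a spectrin of neurons, was at 99.6, 130, 118 and 39.5 CPM against 161 to 344 CPM. None passed the test. These 7 are 0.0467% of the genes tested. How many genes another split of 4 against 8 libraries would put above or below was not tested.

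Promoter sequences from RefSeq (GRCm38.p6, 300 bases that end shortly after the transcription start) were searched on both strands for GAGGAAGT, a sequence that PU.1 is known to bind. Of the 110 separated genes, 67 matched an entry and 12 of these (17.9%) held the letters. The letters were in 341 of the 10323 matched among the genes tested (3.30%) and in 3.69% of all 27025 genes with an entry. Among the 24 matched myeloid list genes 4 held them, namely C1qc, Cd53, Ctss and Fcgr4, while Aif1, C1qb, Cd68, Cx3cr1, Ly86 and Lyz2 did not within this window. Outside the lists the 8 were Pld4, Cyth4, Pirb, Rasgrp3, Bcl2a1b, Arhgap27, Ankrd16 and Pafah2. The interferon-stimulated response element, searched in the same way, was in 7 of the 67 (10.4%) against 3.68% of the matched genes tested. The PU.1 letters were thus not the only ones more frequent here. The 110 genes were selected by the split and hold 37 of the myeloid lists, so nothing is read from these shares. A match describes the letters and not a bound site. The promoters of the 4 myeloid genes and of Pld4, the highest ranked of the others with a match, are shown 5′ to 3′ on the gene's strand with the motif, on either strand, in capitals.
Ctss (chr3:95526536-95526835, plus strand): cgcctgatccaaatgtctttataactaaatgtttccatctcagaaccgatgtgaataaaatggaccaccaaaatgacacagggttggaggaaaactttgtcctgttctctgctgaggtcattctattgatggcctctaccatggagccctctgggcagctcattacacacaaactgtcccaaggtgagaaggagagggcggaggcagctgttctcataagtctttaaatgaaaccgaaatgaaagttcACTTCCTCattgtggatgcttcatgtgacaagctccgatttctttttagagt
C1qc (chr4:136892865-136893164, minus strand): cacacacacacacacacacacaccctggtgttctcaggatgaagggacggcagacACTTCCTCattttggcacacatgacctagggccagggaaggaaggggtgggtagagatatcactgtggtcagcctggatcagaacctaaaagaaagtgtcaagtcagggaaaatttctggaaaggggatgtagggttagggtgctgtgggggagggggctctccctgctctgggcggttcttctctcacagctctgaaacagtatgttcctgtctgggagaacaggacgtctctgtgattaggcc
Cd53 (chr3:106790100-106790399, minus strand): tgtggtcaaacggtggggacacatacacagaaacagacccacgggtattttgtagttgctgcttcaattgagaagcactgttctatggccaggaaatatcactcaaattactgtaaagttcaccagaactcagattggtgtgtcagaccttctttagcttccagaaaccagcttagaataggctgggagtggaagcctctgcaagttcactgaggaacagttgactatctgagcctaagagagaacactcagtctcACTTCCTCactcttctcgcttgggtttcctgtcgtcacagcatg
Fcgr4 (chr1:171018676-171018975, plus strand): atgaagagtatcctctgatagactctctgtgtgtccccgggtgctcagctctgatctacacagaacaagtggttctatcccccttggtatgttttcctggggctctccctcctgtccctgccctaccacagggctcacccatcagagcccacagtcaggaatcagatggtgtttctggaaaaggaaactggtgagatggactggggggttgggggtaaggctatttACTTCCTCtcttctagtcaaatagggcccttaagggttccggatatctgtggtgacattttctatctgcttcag
Pld4 (chr12:112760405-112760704, plus strand): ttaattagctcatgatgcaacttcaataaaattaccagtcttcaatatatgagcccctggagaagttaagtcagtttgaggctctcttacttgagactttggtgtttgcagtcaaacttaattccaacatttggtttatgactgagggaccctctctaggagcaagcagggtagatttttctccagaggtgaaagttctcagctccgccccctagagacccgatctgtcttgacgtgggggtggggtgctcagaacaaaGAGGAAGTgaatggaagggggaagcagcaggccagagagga

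MHC class II presentation genes, a list kept apart from the myeloid genes, were positive in all 9 tested of 14, with a median log2 fold change of 6.31 beside 0.36 for all genes, and 0 passed. H2-Aa was at 1.29, 394, 25.7 and 188 CPM against 0 to 7.61 CPM, a log2 fold change of 7.16 ± 1.51 with an adjusted p of 0.278 in edgeR. H2-Eb1, a class II beta chain, was at 2.28, 185, 30.7 and 32.5 CPM against 0 to 15.3 CPM, with an adjusted p of 0.759. GFP day 7 replicate 3 lay within the range of the poor libraries for both, so the sets overlapped.

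The wider immune pathways were not separated as lists. Of the Toll-like receptor pathway, 7 of 11 tested genes were positive (median 0.63) and 0 passed; Irf5, a transcription factor downstream of the receptors, was at 1.70, 3.11, 16.4 and 0.125 CPM with no count in the other 8, but its lowest value is 3 counts and it shares 411 exonic bases with Tnpo3. Lysosomal genes were positive in 15 of 29 (median 0.47) and 0 passed. Ctsz, a cathepsin, was at 146, 76.2, 320 and 505 CPM against 12.7 to 118 CPM, and Ctsa, the protective protein of lysosomal enzymes, at 208, 84.9, 93.5 and 324 CPM against 10.2 to 137 CPM. Phagocytosis receptors and bridges were positive in 11 of 16 (median 0.77), and ligands of microglial receptors in 8 of 13 (median 0.61), with 0 past the test in each. Itgb5, an integrin chain that binds dying cells through bridging proteins, had a log2 fold change of 5.48 ± 1.78 and Csf1, the ligand of Csf1r, 6.83 ± 3.73, both overlapping.

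MHC class I genes were positive in 15 of 20 (median 0.59) and 0 passed; Psme2, a proteasome activator, was at 96.3, 172, 92.2 and 75.1 CPM against 11 to 93.3 CPM. Interferon-stimulated genes were positive in 15 of 34, with a median of -0.25, and 0 passed. Ifi27l2a alone among them was higher in all 4 rich libraries, at 36.6, 29.0, 14.1 and 16.1 CPM against 0 to 9.41 CPM, with an adjusted p of 0.824 in edgeR. Proliferation genes were positive in 7 of 9 tested (median 0.58); Tpx2, a spindle protein, was at 12.4, 3.04, 7.72 and 0.0418 CPM against 0 to 0.388 CPM.

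B and plasma cell genes stood apart in 1 pool. GFP day 14 replicate 3 gave 15.3% of its counts to immunoglobulin genes, the kappa constant region Igkc reaching 74564 CPM, the joining chain Jchain 30347 CPM and Ighm 27573 CPM, while the other 11 libraries gave at most 0.0164%. Ighm, the heavy chain of IgM, was also at 12.8, 12.8 and 21.8 CPM in the other rich libraries and at most 4.40 CPM in the poor ones, so it is one of the 73. Cd79a, a defining B cell gene, was at 7.39 CPM in GFP day 14 replicate 3 and had no count elsewhere. The T and NK cell list summed to at most 6.93 CPM in the rich libraries and 24.3 CPM in the others, and the neutrophil list to 24.7 and 455 CPM. Both of these lists overlapped between the sets.

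Retinal cell types were spread over both sets. Rod genes were positive in all 15 (median 1.16), 0 passed, and the list summed to 58568, 1407, 57544 and 20500 CPM against 644 to 62867 CPM; Nrl, the rod transcription factor, was at 119, 39.3, 85.5 and 33.3 CPM against 0.761 to 79.0 CPM. Cone genes were positive in all 8 tested (median 2.90), with Gngt2, a transducin chain, at 98.4, 11.8, 128 and 38.0 CPM. Amacrine genes had a median of -0.27 and 5 of 13 positive; the transcription factor Pax6 was at 204, 478, 107 and 137 CPM against 260 to 1043 CPM. Müller glia genes were positive in 2 of 18 (median -0.48), with Car14, a carbonic anhydrase, at 105, 20.2, 92.8 and 59.6 CPM against 8.38 to 533 CPM. Ganglion cell genes were positive in 6 of 14 (median -0.70). Their sum was high in 1 rich pool, the one that carried Olig1, and low in the 3 that carried GFP, as given above. Whether photoreceptor or ganglion cell RNA took part in the difference of any microglial gene was not tested.

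The remaining lists of retinal and vascular cells held 0 called genes. Median log2 fold changes were 0.03 for bipolar cells, -0.36 for horizontal cells, -0.46 for astrocytes, 0.32 for reactive astrocytes, 0.03 for endothelium, 1.50 for pericytes and fibroblasts, 1.15 for pigment epithelium and melanocytes, 2.85 for oligodendrocytes and -0.82 for mast cells and erythrocytes. Fewer than 10 members were tested in each of these lists except bipolar cells and reactive astrocytes. The oligodendrocyte list had 4 of 10 genes tested, and its most abundant member was Olig1, the gene carried by the vector. Its sum had a median of 66.1 CPM in the rich libraries and 128 CPM in the others. In oligodendrocytes the member with the smallest p was Mbp, a myelin protein, at 40.7, 9.19, 0.290 and 0 CPM. Other members with the smallest p had log2 fold changes of 3.76 ± 1.49 for the angiotensinogen gene Agt and -4.02 ± 1.77 for the calcium-binding S100b among astrocyte genes, 1.99 ± 0.93 for Scgn and 3.81 ± 2.32 for Vsx1 among bipolar genes, and -1.67 ± 0.84 for S1pr3 and 5.29 ± 3.14 for Gfap among reactive astrocyte genes. In these 6 the sets overlapped.

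The other genes named by the same rule also overlapped between the sets, and their adjusted p in edgeR ran from 0.759 to 0.977. Gla, a lysosomal galactosidase, had the lowest log2 fold change among them, -7.90 ± 2.52, and Opn1sw, the short-wavelength cone opsin, the highest, 9.62 ± 3.96. In the immune and growth lists they were Casp1 (8.39 ± 3.81), Tyro3 (5.35 ± 2.13), Tgfb3 (6.46 ± 3.26), Nlrc5 (3.62 ± 2.31), Oas1a (4.89 ± 2.65) and Ccna2 (5.53 ± 2.33). Blood cell lists gave Igkc (6.92 ± 4.60), Bcl11b (4.55 ± 3.69), Lcn2 (-3.17 ± 1.96), Hbb-bt (5.60 ± 2.80) and Hba-a1 (-2.35 ± 1.44). Among neuronal and glial genes the values were 3.62 ± 1.32 for the potassium channel Kcnj10, 2.30 ± 0.91 for the rod phosphodiesterase Pde6b, 3.99 ± 4.10 for Lhx1, 2.40 ± 2.90 for Onecut1, 5.30 ± 2.02 for Ebf1 and 3.21 ± 1.77 for the neurofilament Nefh. Vessel, stroma and pigment lists gave Egfl7 (5.66 ± 3.70), Flt1 (-0.50 ± 0.59), Col3a1 (3.71 ± 2.03), Col1a2 (4.05 ± 2.99), Ttr (-4.07 ± 2.57) and Dct (1.93 ± 1.81). No direction is read from these values.

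**Figure D5:**
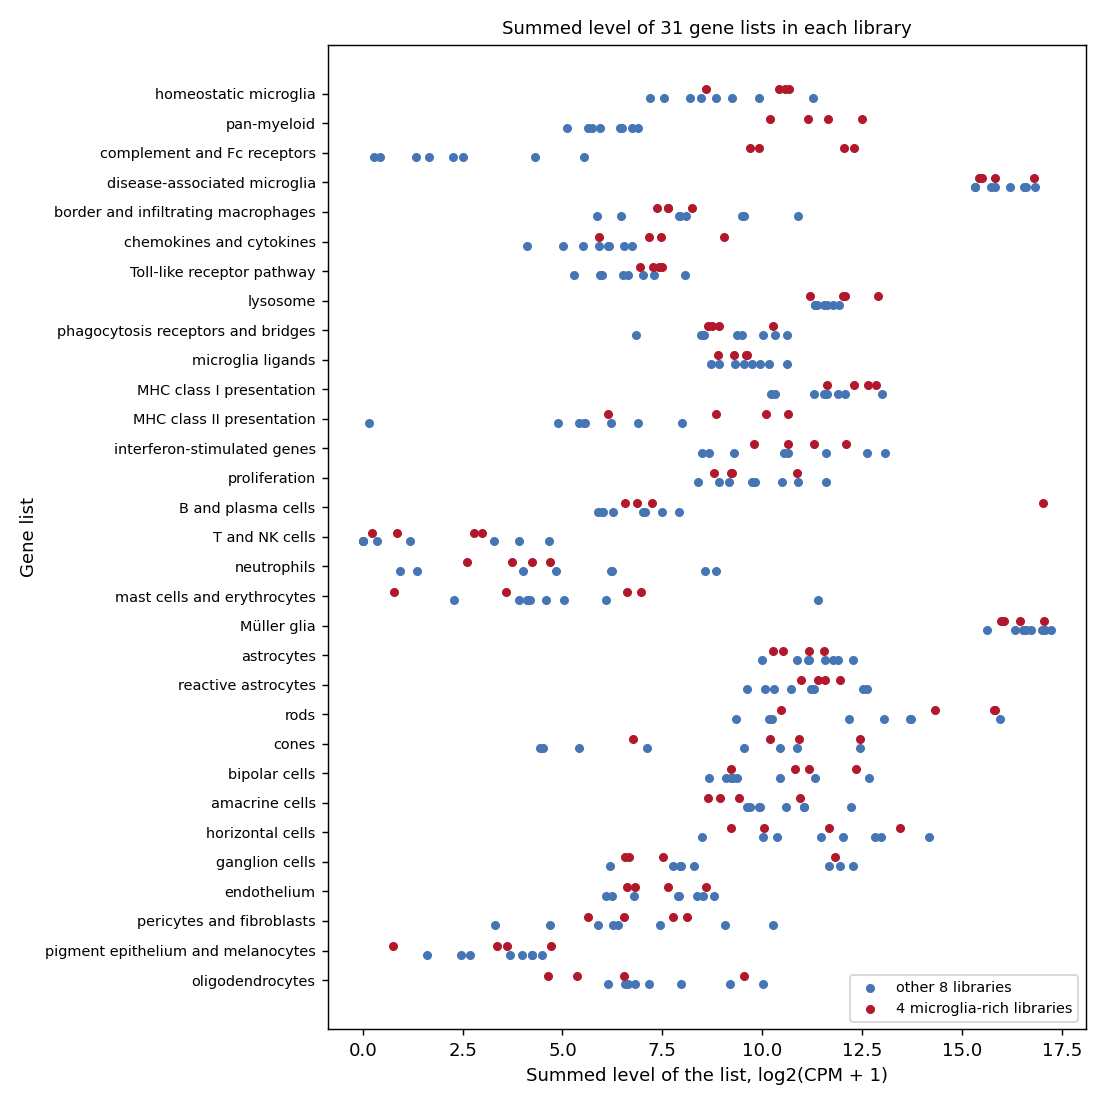
Summed level of each of 31 gene lists per library, as log2(CPM + 1), with red points for the 4 microglia-rich libraries and blue for the other 8. The pan-myeloid and complement lists separate, and the retinal cell type lists overlap.

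Within single groups the myeloid list genes follow the rule that chose the rich libraries, so their counts only describe it. In GFP day 7 the rich library was above both others for 61 of the 82 tested myeloid list genes, against 35.0% of all tested genes. The count was 63 of 82 in Olig1 day 7, against 41.0%, and 63 of 82 in GFP day 14, where both rich libraries lay above the single other one, against 41.8%. In each of the 3 groups 6 of the 82 lay below, against 23.1%, 21.0% and 29.8% of all tested genes, and nothing is read from these counts.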

How the data were processed

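Per the labels' protocols, cDNA of each pool was amplified over 20 PCR cycles (SMART-Seq HT), a chemistry without molecular identifiers. Counts per gene are the authors' deposited values; reads were checked, aligned and counted with FastQC, HISAT2 and HTSeq on mm10, per the submitters' processing notes, and the strand setting is not given in the sources used here. The series table (54232 genes) was used because 4 of the per-library files lacked 270 to 2853 of its genes; no gene present in both differed. Symbols, coordinates and exon overlaps came from GENCODE M21 (GRCm38), which matched 54165 identifiers.

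Genes kept by filterByExpr (minimum count 10) were tested with edgeR 4.0.16 (TMM, robust quasi-likelihood, virus-by-day group plus rich or poor, 12 libraries, Benjamini-Hochberg over all tested genes, threshold 0.05). The contrast is taken within groups, and Olig1 day 14 adds only to the spread. Values are CPM; a ratio against 0 counts used 3 counts over the 8 libraries. Likeness used log2(CPM + 1). DESeq2 1.42.0, limma 3.58.1 and the other alternatives are in the closing section.

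Members, gene lists and named genes were chosen with earlier results of these data known. Genes named were the 4 markers, up to 6 separated members of each myeloid list by level, the 2 members with the smallest p of the other lists, and the 12 genes most like the markers. Further names were picked after their values were seen. A few genes that this rule names are not reported here.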

Additional observations from a re-analysis of the deposited data

Results flagged for a closer look

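Within the 4 rich or the 8 other libraries, 72 groups of values were examined for a library far from the rest, and 6 stood out. The levels of P2ry12 and Tmem119 among them also made the split. A chance rate of about 1 in 20 cannot be relied on for such sets, so nothing is read from the count of 6. Olig1 day 7 replicate 3 had the lowest summed homeostatic microglia genes of the rich libraries, 383 CPM against 1358 to 1632 CPM. GFP day 14 replicate 3 had 132893 CPM of B and plasma cell genes against 94.1 to 150 CPM in the other 3 rich libraries. Among the other 8, GFP day 14 replicate 1 had 0.118 CPM of MHC class II genes against 28.6 to 255 CPM, and its P2ry12 was at 24.5 CPM against 0 to 0.109 CPM. Tmem119 in GFP day 7 replicate 1 was at 10.5 CPM against 0 to 0.652 CPM. Mast cell and erythrocyte genes in Olig1 day 7 replicate 2 summed to 2706 CPM against 3.88 to 66.6 CPM.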

How the results depend on the processing

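The sign of genes whose libraries do not overlap was fixed by how they were chosen. Of the 50 other named genes, 13 had the opposite sign under at least 1 of 23 alternatives (22 of 1110 values, 9 of them without the group term), among them Bcl11b, Col1a2, Csf1, Dct, Flt1, Gfap, Hbb-bt, Lhx1, Nefh, Nlrc5, Oas1a and Onecut1, and none of these had passed the test. Counts of calls moved as follows, and the cause was not tested. For genes called higher (6 as reported), DESeq2 gave 680, limma voom 17, no low-count filter 37, no group term 12, the marker sum as a number 2, the 3 groups with a rich library 1, and GFP libraries only and day 7 libraries only 0 each. For genes called lower (0 as reported), DESeq2 gave 55 and no filter 3. Outside the myeloid lists (0 as reported), DESeq2 gave 693, limma voom 3 (Npy, Pld4 and Ttc32), no filter 18 and day 14 libraries only 1 (Tmed10). With the replicate block the test called 0 genes, and 3 of the 4 rich libraries share the number 3. None of 18 same-numbered pairs correlated over 0.1 (-0.07 to 0.04), and 5 of 12 libraries correlated best with their own number. In pools that vary this widely, such values cannot show whether the numbers pair the libraries or follow a batch.

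Leaving out 1 library at a time, with 16273 to 16754 genes tested, gave 0 to 8 genes called higher, 0 called lower and 0 to 1 outside the lists. The count fell to 0 without GFP day 7 replicate 3, and to 2 without GFP day 7 replicate 1, GFP day 7 replicate 2, Olig1 day 7 replicate 1 or GFP day 14 replicate 3. Separated genes, under alternatives chosen after seeing the data, numbered 88 to 130 higher over scalings and filters and 120 to 208 of the same 14985 genes with 1 library left out, a rise that fewer libraries bring by construction. Genes lower in all 4 numbered 16 with DESeq2 size factors and 9 to 47 with 1 library left out. Low counts limit the values of the 8 other libraries, where 72 of the 110 separated genes stayed under 1 CPM. The median log2 fold change of all tested genes, 0.36 as reported, was 0.29 with DESeq2 size factors, 0.56 with the replicate block and -0.16 without the group term. List medians near these values are therefore not read as differences.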

Other observations

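Without a low-count filter, edgeR called genes outside the lists that did not pass in the test as reported, and some of these calls do not follow the levels. Npy, a neuropeptide gene, had a log2 fold change of 6.77 ± 0.77 and an adjusted p of 6.98e-15 without the filter (0.773 as reported), but its level ran from 0 to 8889 CPM in the rich libraries and from 0 to 45.6 CPM in the others. Opn4, the photopigment gene of intrinsically photosensitive ganglion cells, had 7.21 ± 1.10 and an adjusted p of 9.48e-08 without the filter (0.822 as reported), although its mean was 13.1 CPM in the rich libraries and 278 CPM in the others. Both genes were named after their values were seen.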
